A study of Homo sapiens and Mus musculus with 12 samples.

Results

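The 35 genes described here are known imprinted genes of human or mouse, some of them in certain tissues or isoforms only, listed by human symbol. Their transcripts were counted by RNA-seq in 12 libraries of cortical organoids, stem cell aggregates that differentiate toward embryonic forebrain. All 35 symbols had a row among 60675 human gene identifiers. In mouse, 32 of them had an ortholog, matched by its gene description, among 47729 identifiers, and ZIM2, SNURF and DIRAS3 were not matched. The human KO organoids came from H9, an established human embryonic stem cell line, made NOTCH2NL knockout with CRISPR/Cas9 (line code H9_KO_E5del42), and the human WT organoids from an H9 control line (H9_WT_E2del19). Both were taken at day 28 (week 4) as pools of 5 to 10 organoids. Each genotype was 1 line, so the knockout and any other difference between the lines cannot be told apart. The mouse N2NL organoids came from a stable line of 46C embryonic stem cells that overexpressed a NOTCH2NL-Sh_T197I cDNA (46C_N2NL), and the EV organoids from a 46C line with an empty vector control (46C_EV), both taken at day 6 as pools of 16 organoids. The sources used here do not give the promoter of the vector. Each of the 4 groups had 3 libraries. Nothing in the labels ties the pools to separate cultures, so each p-value here measures the spread between pools, part of which may be technical. The study asked how loss of NOTCH2NL, a human gene family derived from NOTCH2, and its expression in mouse cells alter cortical differentiation.

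An imprinted gene is transcribed mainly or wholly from the copy inherited from a single parent. Methylation placed on a control region in the egg or sperm marks the silent or active copy, and the zinc finger protein ZFP57 with its partner TRIM28 keeps that methylation in the early embryo. Most imprinted genes lie in clusters that share a control region, often with long noncoding RNAs expressed from the opposite parental copy to the protein genes beside them. Many act on growth: paternally expressed genes such as IGF2, DLK1 and PEG10 largely promote growth or placental development, and maternally expressed genes such as CDKN1C, PHLDA2 and H19 largely restrain it. In the developing brain several are expressed widely in progenitors or new neurons, among them NNAT, NDN, MEST and PEG3. Stem cell cultures are known to lose or gain imprinting marks at some of these loci. Counts per gene do not separate the parental copies, so the values here are total levels and say nothing of which copy was read.

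Promoters are printed for the genes on which the results turn and that a RefSeq table (GRCh38.p14) covered: COPG2 and ZDBF2, which differed between the human lines, MEST, whose end overlaps that of COPG2, and USP29, which had no read in any human library. The table held 23 of the 35 genes as windows of 250 bases before to 50 after a start, and the start with the most CpG sites was taken. Capitals mark the hexamer TGCCGC, the core of the sequence that ZFP57 binds when it is methylated, or GCGGCA, which is TGCCGC on the other strand.
ZDBF2, chr2:206274760-206275059, plus strand: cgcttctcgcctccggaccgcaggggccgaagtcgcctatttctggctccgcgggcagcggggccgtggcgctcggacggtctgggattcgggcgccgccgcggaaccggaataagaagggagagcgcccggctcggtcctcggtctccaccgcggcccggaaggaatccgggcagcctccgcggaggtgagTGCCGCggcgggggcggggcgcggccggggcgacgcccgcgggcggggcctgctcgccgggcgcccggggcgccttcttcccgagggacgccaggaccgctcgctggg
COPG2, chr7:130668699-130668998, minus strand: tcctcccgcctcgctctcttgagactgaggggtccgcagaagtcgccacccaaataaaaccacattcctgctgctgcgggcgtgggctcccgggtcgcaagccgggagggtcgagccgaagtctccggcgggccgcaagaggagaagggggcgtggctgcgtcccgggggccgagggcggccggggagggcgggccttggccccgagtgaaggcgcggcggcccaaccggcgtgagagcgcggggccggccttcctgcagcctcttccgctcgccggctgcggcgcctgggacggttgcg
MEST, chr7:130491835-130492134, plus strand: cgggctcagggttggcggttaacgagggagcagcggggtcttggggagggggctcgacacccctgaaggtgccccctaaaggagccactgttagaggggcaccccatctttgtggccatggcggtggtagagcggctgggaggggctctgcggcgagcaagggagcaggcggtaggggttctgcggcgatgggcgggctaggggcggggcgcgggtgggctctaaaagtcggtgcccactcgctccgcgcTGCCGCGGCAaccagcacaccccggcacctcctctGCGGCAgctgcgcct
USP29, chr19:57119735-57120034, plus strand: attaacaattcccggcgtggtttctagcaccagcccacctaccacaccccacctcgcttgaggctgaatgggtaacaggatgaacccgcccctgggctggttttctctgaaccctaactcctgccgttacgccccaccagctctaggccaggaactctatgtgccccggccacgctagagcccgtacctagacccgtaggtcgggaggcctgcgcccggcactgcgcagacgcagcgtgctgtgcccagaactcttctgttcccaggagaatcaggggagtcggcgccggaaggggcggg
The windows of ZDBF2, COPG2, MEST and USP29 held 50, 37, 25 and 20 CpG sites, against a median of 25 over the 23 genes and of 16 over all 27305 genes of the table. MEST had 3 matches to the hexamer, of which the leftmost pair overlap, ZDBF2 had 1, and COPG2 and USP29 had 0. Of the 23 genes, 12 held at least 1 match (52.2%), as did 17.9% of all genes in the table. The hexamer itself contains a CpG, so windows rich in CpG hold it more readily, and a match is a string of letters, not a site shown to be bound.

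NOTCH2NL itself had 0 counts in all 3 KO libraries against 4, 5 and 3 in WT 1 to 3, too few to test and uncertain because the NOTCH2NL copies are nearly identical. In mouse its row in the authors' deposited table held normalized values of 801, 709 and 740 in N2NL 1 to 3 and of 0 in the EV libraries. Human libraries held 15381409 to 16382938 counts and mouse libraries 16781742 to 20960391. Levels are given in CPM, counts scaled to a common library total. A gene with 0 counts could still lie at up to 0.195 CPM in human and 0.179 CPM in mouse, from a floor of 3 counts that covers counting error only. All 12 listed markers of cortical progenitors, among them PAX6 and SOX2, were high enough to be tested in each species. Markers of endoderm and mesoderm summed to 1351 to 4140 CPM in KO libraries and 272 to 2118 CPM in WT libraries, nearly all of it from TTR, a gene of liver and of choroid plexus, while SOX17 and TBXT were at 0 in every human library.

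In the human organoids the imprinted genes covered the whole range of expression, from GNAS and NNAT, each above 1000 CPM, to 3 genes without a single read. Of the 35, 23 averaged at least 10 CPM over the 6 libraries, 9 at least 100 CPM and 2 at least 1000 CPM. GNAS (ENSG00000087460; GRCh38, GENCODE 29, chromosome 20, 58839718 to 58911192, plus strand), which encodes the stimulatory G protein alpha subunit and several imprinted alternative products, had 2084, 2113 and 2433 CPM in KO 1 to 3 and 1986, 2232 and 2100 CPM in WT 1 to 3. NNAT (neuronatin, ENSG00000053438; chromosome 20, 37521206 to 37523693, plus strand), a small membrane proteolipid of developing neurons and endocrine cells, had 1785, 1722 and 2240 CPM in KO and 1713, 2306 and 2440 CPM in WT. PEG10 (ENSG00000242265; chromosome 7, 94656325 to 94669695, plus strand), a gene derived from a retrotransposon and needed for the mouse placenta, had 684, 629 and 795 CPM in KO and 574, 568 and 568 CPM in WT. The KO and WT libraries overlapped for GNAS and NNAT, and for PEG10 every KO library lay above every WT library. None of these 3 passed the test: the log2 fold changes of KO over WT were 0.07 ± 0.09 (SE) for GNAS, -0.17 ± 0.15 for NNAT and 0.30 ± 0.10 for PEG10 (edgeR adjusted p = 0.711, 0.549 and 0.100). Per kilobase of exon, NNAT stood at 1527 CPM on average over the 6 libraries, rank 15 of 57055 genes with a length. The next imprinted genes by CPM per kilobase were GNAS (162), PEG10 (95.1), NDN (90.9), a neuronal growth suppressor gene of the Prader-Willi region, and MEST (42), an alpha/beta hydrolase fold gene.

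**Figure D1:**
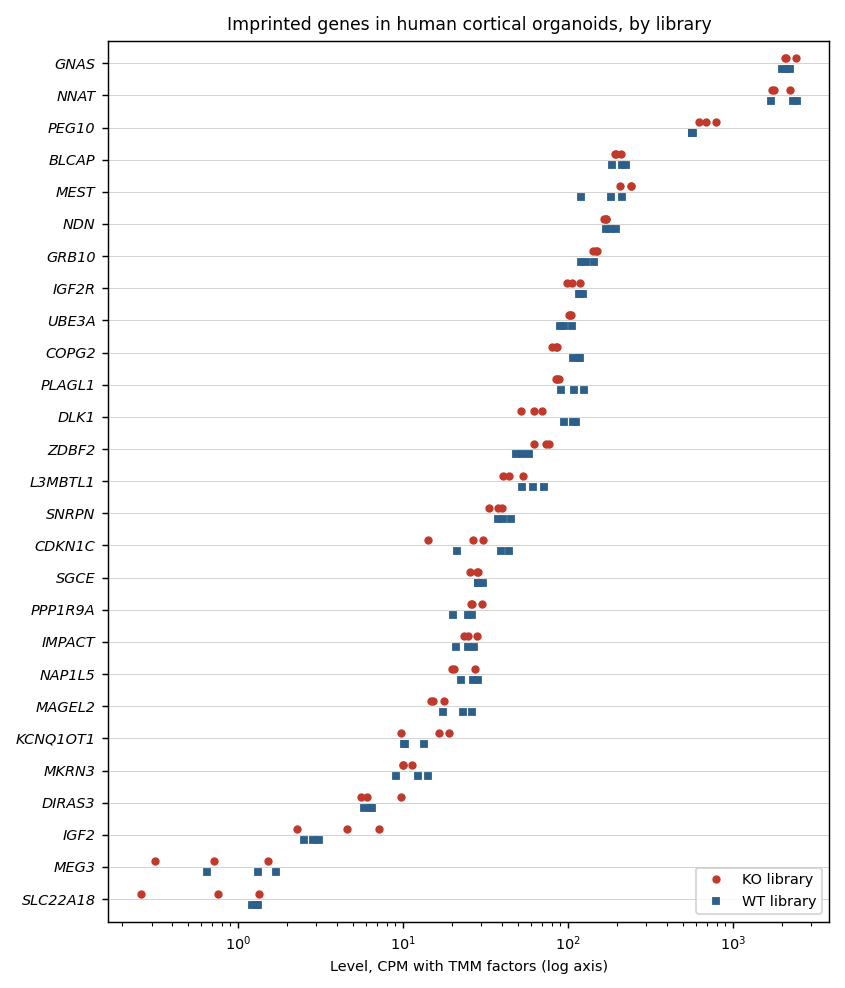
Level of each imprinted gene that averaged at least 1 CPM in the human organoids, on a log axis in CPM with TMM factors, with 1 point for each KO library (circles) and each WT library (squares). The KO and WT points of DLK1 and COPG2 lie apart, with KO lower, those of ZDBF2 and PEG10 lie apart with KO higher, and H19, at under 1 CPM on average, is not drawn.

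The genes of the PEG3 cluster on chromosome 19 were not detected in human. PEG3, a zinc finger gene of growth and maternal behaviour in mouse, its neighbour ZIM2 and the deubiquitinase gene USP29, whose promoter is printed above, had 0 counts in all 6 human libraries. In the mouse organoids Peg3 had 450, 465 and 471 CPM in N2NL 1 to 3 and 487, 446 and 408 CPM in EV 1 to 3, and Usp29 had 21 to 24.5 CPM in N2NL and 25 to 25.8 CPM in EV. The noncoding RNAs of the DLK1 cluster showed the same division between the species. MEG3 had 5 to 25 counts in KO libraries and 10 to 28 in WT libraries, and MEG8 had 1 count in each of KO 3 and WT 1 and none elsewhere. Only 15.7% of the exon bases of MEG8 lie in no other gene of its strand, so its low count is uncertain. The mouse ortholog of MEG3 stood at 295 to 337 CPM in N2NL and 297 to 338 CPM in EV (Meg3). That of MEG8 stood at 190 to 197 CPM in N2NL and 189 to 208 CPM in EV (Rian). Species, stem cell line, day of harvest and annotation all differ between these tables, so the species cannot be compared by a test here.

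Of the 35 human genes 29 passed the filter on low counts, and KO differed from WT in 3 of them: DLK1 and COPG2 were lower and ZDBF2 was higher in KO. Over all 16956 genes tested the same threshold (edgeR quasi-likelihood, Benjamini-Hochberg adjusted p under 0.05) called 5.5%, with 2.31% higher and 3.19% lower. MEG8, PHLDA2 and SNURF were too low to be tested, as were PEG3, ZIM2 and USP29 at 0. The libraries of KO and WT did not overlap for 5 of the 29 (17.2%), against 28.8% of all genes, and 7 (24.1%) had an unadjusted p under 0.05, against 22.8% of all genes. The median log2 fold change of the 29 was -0.11, and -0.00 over all genes, with 12 above 0 and 17 below, where 49.3% of all genes lay above 0. These are bulk samples, in which fewer cells of a type and less RNA per cell cannot be told apart.

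DLK1 (ENSG00000185559; chromosome 14, 100725705 to 100738224, plus strand), which encodes a membrane protein related to the Notch ligands and is expressed from the paternal copy, had 969, 818 and 1142 counts in KO 1 to 3 against 1463, 1773 and 1687 in WT 1 to 3. In CPM these were 62.9, 51.9 and 69.7 in KO and 94.6, 108 and 112 in WT. The highest KO library lay below the lowest WT library. DLK1 averaged 61.5 ± 9.0 CPM in KO and 105 ± 8.95 CPM in WT (SD, n = 3 each), with a log2 fold change of -0.77 ± 0.12 (edgeR adjusted p = 0.00597). Without WT 3 the adjusted p was 0.0528 at a fold change of -0.72, and it stayed under the threshold with any of the other 5 libraries left out. No other gene of its cluster passed in edgeR: RTL1, a retrotransposon-derived gene of placenta and muscle, had 10 to 15 counts in KO and 13 to 23 in WT, and MEG3 is given above. DIO3, the thyroid hormone deiodinase gene of the same cluster, which is not among the 35, lay the other way and was called by DESeq2 (adjusted p = 0.0329). It had 6.29, 6.34 and 14.6 CPM in KO and 1.88, 5.23 and 4.70 CPM in WT, without overlap, a log2 fold change of 1.20 ± 0.47 (edgeR unadjusted p = 0.0373, adjusted p = 0.188) that was 0.68 without KO 3.

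COPG2 (ENSG00000158623; chromosome 7, 130506238 to 130668748, minus strand) encodes a coat protein subunit of vesicles that move between the Golgi apparatus and the endoplasmic reticulum. Its imprinting was classed here as isoform or tissue dependent, not as paternal or maternal. COPG2 had 86.2, 80.5 and 84.9 CPM in KO and 117, 108 and 118 CPM in WT. The groups did not overlap, and each varied little within itself. The means were 83.9 ± 2.95 CPM in KO and 114 ± 5.64 CPM in WT, a log2 fold change of -0.45 ± 0.08 (edgeR adjusted p = 0.0130), and the adjusted p was 0.0751 without WT 3 and 0.0666 without KO 1. MEST (ENSG00000106484; chromosome 7, 130486171 to 130506465, plus strand) lies tail to tail with COPG2, overlaps its last bases on the opposite strand and is expressed from the paternal copy. It had 209, 243 and 241 CPM in KO and 120, 212 and 182 CPM in WT, so that the groups overlapped and the log2 fold change of 0.43 ± 0.20 did not pass (edgeR adjusted p = 0.252). The 6 libraries stood in the same order by MEST as by TTR, the choroid plexus and liver gene, which had 1318, 4108 and 3432 CPM in KO and 252, 2104 and 1090 CPM in WT. The part of TTR-expressing cells in the level of MEST was not tested. The strand setting of the counting was not given in the sources at hand, and reads from the shared end of MEST and COPG2 may not have been assigned cleanly.

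ZDBF2 (ENSG00000204186; chromosome 2, 206274663 to 206314438, plus strand), a paternally expressed zinc finger gene whose mouse ortholog acts in the hypothalamus on feeding and growth, had 76.6, 73.6 and 62.8 CPM in KO and 52.5, 58.1 and 48.6 CPM in WT. Every KO library lay above every WT library. The means were 71.0 ± 7.22 CPM in KO and 53.1 ± 4.79 CPM in WT, a log2 fold change of 0.42 ± 0.11 (edgeR adjusted p = 0.0489). That call sat just inside the threshold: with single libraries left out it held only without KO 3, and the adjusted p ran from 0.0419 to 0.191. GPR1 (ENSG00000183671; chromosome 2, 206175316 to 206218047, minus strand), a receptor gene of the same imprinted domain 56.6 kb from ZDBF2, was higher in KO as well. It had 10.7, 16.0 and 11.6 CPM in KO and 2.85, 6.93 and 5.17 CPM in WT, a log2 fold change of 1.36 ± 0.30 (edgeR adjusted p = 0.0361), which with single libraries left out was called without WT 1 and without WT 2. In mouse Gpr1 averaged 1.38 ± 0.677 CPM in N2NL and 1.90 ± 0.0421 CPM in EV and did not pass.

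**Figure D2:**
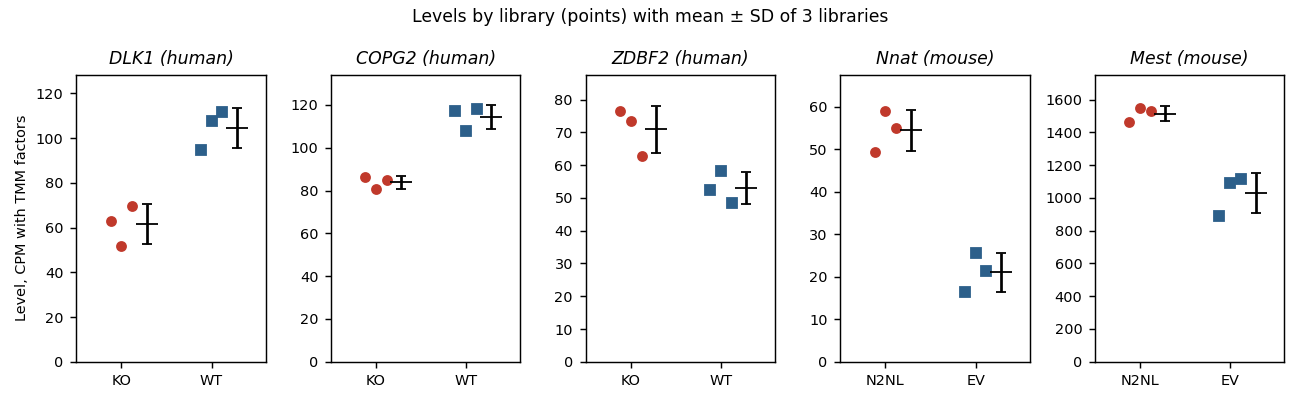
Levels in CPM with TMM factors, on linear axes from 0, of DLK1, COPG2 and ZDBF2 in human KO and WT libraries and of Nnat and Mest in mouse N2NL and EV libraries. Points are single libraries and the bars give the mean ± SD of 3. No pair of groups overlaps, and all but Mest (adjusted p = 0.0944) passed the edgeR test.

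The authors' deposited table gave adjusted p-values of 3.67e-06 for DLK1, 0.00134 for COPG2 and 0.0244 for ZDBF2 by DESeq2. That table, made from the same libraries, held 1348 human genes with an adjusted p under 0.05. The other 26 tested human genes had log2 fold changes from -0.68 (SLC22A18) to 0.72 (IGF2) and adjusted p-values from 0.0994 to 0.815 in edgeR. PLAGL1, a zinc finger gene that restrains proliferation, with an imprinted promoter linked to transient neonatal diabetes, had 88.1, 85.8 and 84.4 CPM in KO and 125, 90.7 and 108 CPM in WT. Its KO libraries all lay below the WT libraries, but its log2 fold change of -0.33 ± 0.11 did not pass (edgeR adjusted p = 0.117), except without WT 2 (0.0419).

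Of the 35 genes, none of those in the Prader-Willi and Angelman region of chromosome 15 was called in either species by edgeR or DESeq2, and of those MAGEL2 in human (0.0137) and Magel2 in mouse (0.0222) alone had an unadjusted p under 0.05 in edgeR. SNHG14, the long noncoding RNA of the same region, which is not among the 35, was higher in KO by DESeq2 (adjusted p = 0.0284). It had 207, 195 and 202 CPM in KO and 172, 161 and 138 CPM in WT, without overlap, a log2 fold change of 0.36 ± 0.09 that missed the edgeR threshold (unadjusted p = 0.00334, adjusted p = 0.0557) except without WT 1 (0.0180). The paternally expressed genes NDN, MAGEL2, a regulator of ubiquitin ligases, MKRN3, a brake on puberty, and SNRPN, a splicing protein gene, had human log2 fold changes of -0.11 ± 0.08, -0.49 ± 0.16, -0.18 ± 0.19 and -0.16 ± 0.11. UBE3A, the ubiquitin ligase gene of Angelman syndrome, which is expressed from the maternal copy in neurons, stood at 103 ± 0.928 CPM in KO and 97.1 ± 8.57 CPM in WT. MAGEL2 had the largest of these differences, at 15.2, 14.8 and 17.7 CPM in KO and 17.5, 26.2 and 23.2 CPM in WT, where KO 3 overlapped WT 1 (edgeR adjusted p = 0.114). It passed without WT 1 (adjusted p = 0.0204). In mouse Magel2 lay the other way, at 25.6 to 28.0 CPM in N2NL and 21.1 to 24.2 CPM in EV, and did not pass either (edgeR adjusted p = 0.604). SNRPN and SNURF share exons with SNHG14 and with each other on the same strand, so their split of the reads is uncertain.

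In the mouse organoids Nnat was higher in N2NL than in EV, the lowest p of all 16682 genes tested and 1 of 2 genes past the threshold (0.012% of those tested). Nnat (ENSMUSG00000067786) had 993, 993 and 932 counts in N2NL 1 to 3 against 302, 539 and 436 in EV 1 to 3. In CPM these were 49.4, 58.9 and 55.1 in N2NL and 16.4, 25.5 and 21.3 in EV. Every N2NL library lay well above every EV library. The means were 54.5 ± 4.80 CPM in N2NL and 21.1 ± 4.57 CPM in EV (SD, n = 3 each), with a log2 fold change of 1.37 ± 0.14 (edgeR adjusted p = 0.0143). With 1 library left out the fold change ran from 1.22 to 1.53 and the call was lost in 3 of 6 fits, without EV 3, N2NL 2 or N2NL 3 (adjusted p = 0.122, 0.0654 and 0.133). The authors' deposited table, made from the same libraries, gave it an adjusted p of 5.34e-29 and held 148 mouse genes with an adjusted p under 0.05. The DESeq2 Wald test run here on the deposited counts called fewer mouse genes, as given in the last section, and the reason was not tested. The neighbouring gene Blcap, whose human ortholog spans NNAT on the opposite strand, stood at 108 ± 2.69 CPM in N2NL and 115 ± 6.47 CPM in EV and did not pass (edgeR adjusted p = 0.860).

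Mest came next among the mouse imprinted genes. It had 1463, 1549 and 1531 CPM in N2NL and 891, 1092 and 1113 CPM in EV, and the groups did not overlap. The log2 fold change of 0.55 ± 0.09, the sixth lowest p of all mouse genes, missed the threshold in edgeR (adjusted p = 0.0944), and passed it in the DESeq2 Wald test (adjusted p = 1.05e-05) and in the authors' deposited table (2.49e-11). Copg2, its neighbour, had 101, 113 and 120 CPM in N2NL and 120, 129 and 116 CPM in EV, overlapping groups with a log2 fold change of -0.13 ± 0.08 (edgeR adjusted p = 0.755). Dlk1 had 41.0, 37.8 and 35.2 CPM in N2NL and 28.4, 26.3 and 33.4 CPM in EV. All N2NL libraries lay above the EV libraries, and the log2 fold change of 0.37 ± 0.10 did not pass (edgeR adjusted p = 0.396). Zdbf2 had 57, 76.0 and 84.9 CPM in N2NL and 59.6, 61.7 and 65.0 CPM in EV, with overlap and a log2 fold change of 0.22 ± 0.12 (edgeR adjusted p = 0.742).

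Among the 31 mouse genes tested, 1 was higher and 0 were lower, where 0.012% of all genes were higher and 0% lower. Nap1l5 was too low to be tested. At an unadjusted p under 0.05 there were 5 of the 31 (16.1%), against 7.45% of all genes, and the DESeq2 Wald test called 2, Nnat and Mest. The libraries did not overlap for 6 (19.4%), against 12.7% of all genes: Nnat, Dlk1, Mest, Magel2 and Gnas with N2NL above EV, and Usp29 with N2NL below. The median log2 fold change of the 31 was -0.07, against -0.01 over all genes, with 12 above 0 and 19 below (11 and 20 with library size alone), where 48.3% of all genes lay above 0.

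**Figure D3:**
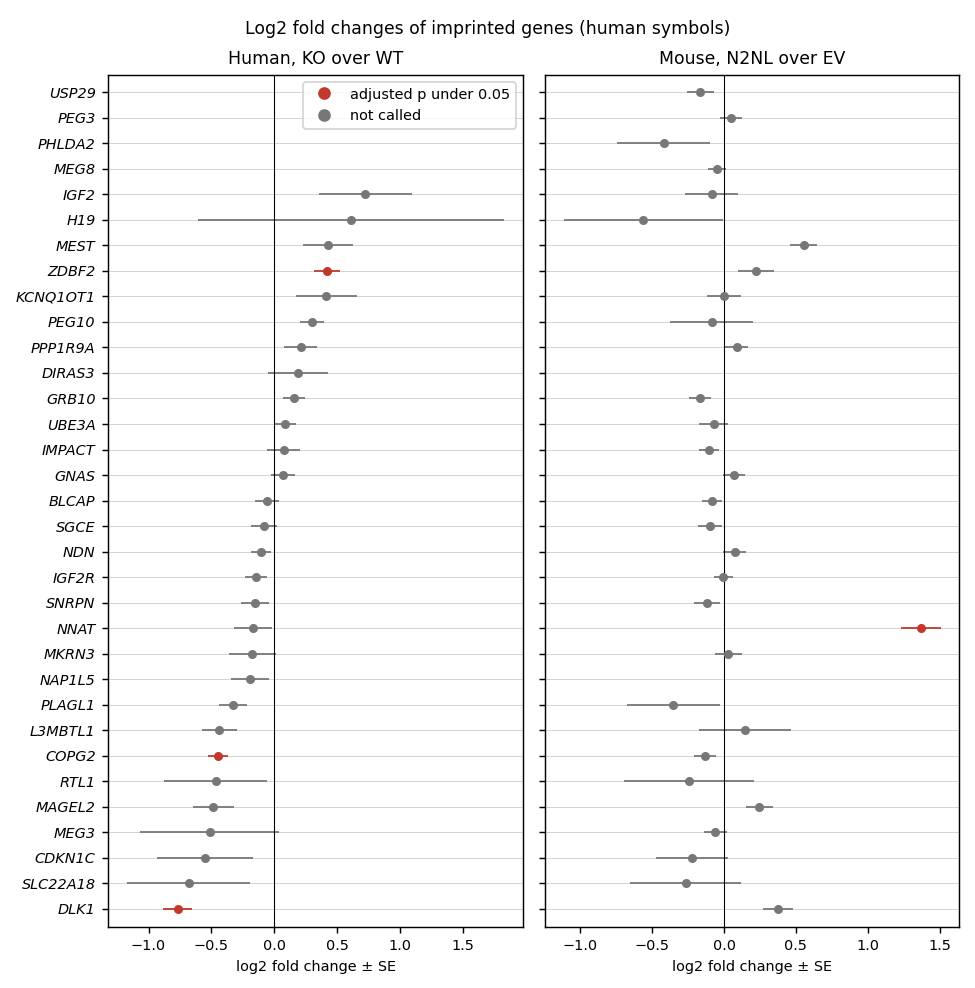
Log2 fold changes ± SE of the imprinted genes tested, KO over WT in human (left) and N2NL over EV in mouse (right), by human symbol and ordered by the human value, with genes not tested in human on top. Red points passed an adjusted p of 0.05 and grey points did not, and the long bars of H19 in both panels show its spread between libraries.

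The mouse genes that took the most reads were Igf2, the fetal growth factor, Peg10 and Gnas. Igf2 had 1964, 1495 and 1398 CPM in N2NL and 2180, 1506 and 1473 CPM in EV. Peg10 had 1962, 1433 and 1478 CPM in N2NL and 2432, 1506 and 1236 CPM in EV. Replicate 1 was the highest library of each group for both, and the groups overlapped. Gnas had 1492, 1534 and 1520 CPM in N2NL and 1466, 1398 and 1467 CPM in EV, the smallest spread within groups of any mouse imprinted gene tested (percentile 1.35 of all genes tested). None of the 3 passed, at log2 fold changes of -0.09 ± 0.19 for Igf2, -0.09 ± 0.29 for Peg10 and 0.07 ± 0.07 for Gnas (edgeR adjusted p = 0.958, 0.978 and 0.889). In human, IGF2 had 35, 72 and 117 counts in KO and 39, 51 and 43 in WT, under 8 CPM in every library, and only 26.3% of its exon bases lie in no other gene of its strand.

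**Figure D4:**
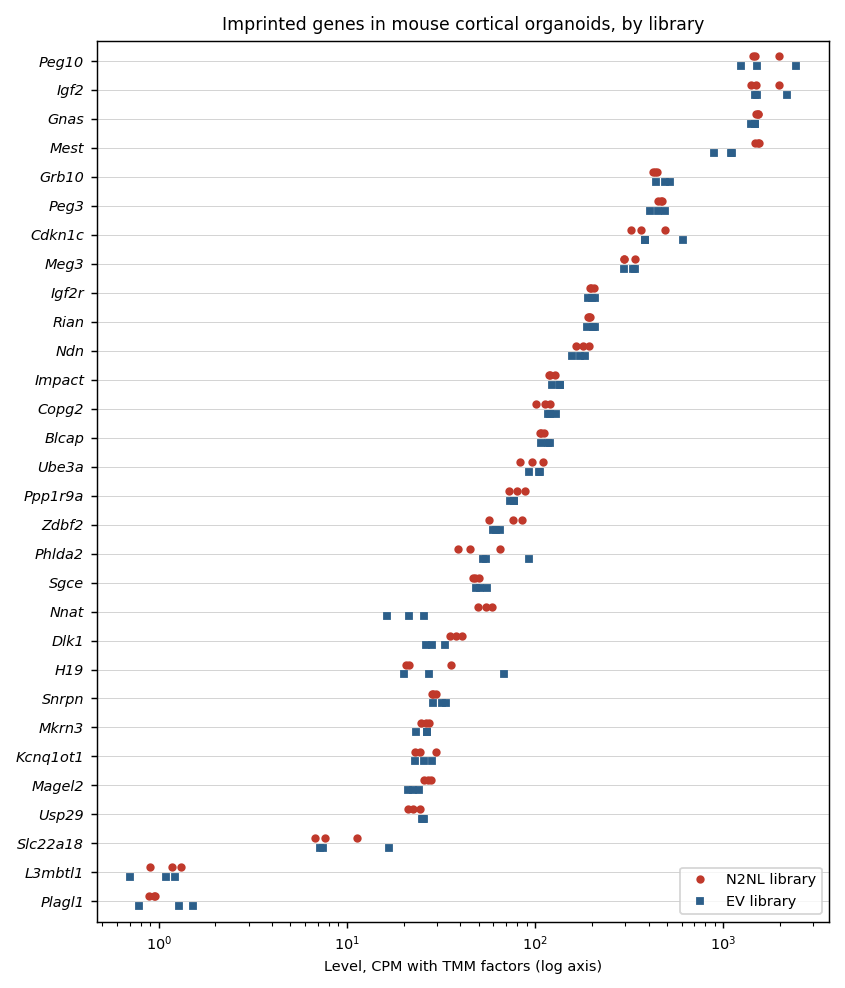
Level of each imprinted gene that averaged at least 1 CPM in the mouse organoids, on a log axis in CPM with TMM factors, with 1 point for each N2NL library (circles) and each EV library (squares). The Nnat and Mest points of N2NL lie above those of EV, while H19, Cdkn1c, Phlda2 and Slc22a18 each have a single high library in both groups.

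Several mouse orthologs of the human chromosome 11 imprinted genes were highest in replicate 1 of both N2NL and EV. H19, a growth-restraining noncoding RNA, had 35.8, 21.3 and 20.6 CPM in N2NL and 68.2, 20.2 and 27.2 CPM in EV. Cdkn1c, a cyclin-dependent kinase inhibitor, had 487, 366 and 324 CPM in N2NL and 608, 384 and 384 CPM in EV. Phlda2, which limits placental growth, had 65.3, 44.9 and 38.7 CPM in N2NL and 92.6, 52.8 and 54.5 CPM in EV. Replicate 1 was high in both groups for each of these, for the transporter gene Slc22a18 and for Igf2 and Peg10: 6 of the 31 genes had their highest level there in both groups (19.4%), as did 15.8% of all mouse genes, and these 6 were picked out after their values were seen. Another 11 of the 31 were lowest in replicate 1 of both groups (35.5%), as were 17.7% of all mouse genes: Nnat, Blcap, Usp29, Ppp1r9a, Mest, Grb10, Ndn, Magel2, Mkrn3, L3mbtl1 and Zdbf2. Replicate 1 lay above the mean of the other 2 by 0.76 for H19 and by 0.43 to 0.64 for the other 5 in N2NL, and by 1.52 for H19 and 0.55 to 1.13 for the other 5 in EV, on the log2(CPM + 0.5) scale. Kcnq1ot1, the noncoding RNA read from the paternal copy of the same cluster, was highest in replicate 1 in EV alone and lowest there in N2NL, with 22.9, 24.4 and 29.8 CPM in N2NL and 28.5, 25.5 and 23.0 CPM in EV. A list of 15 trophoblast genes, chosen after these values were seen, moved with the 6: it summed to 2003, 1227 and 1087 CPM in N2NL and to 2105, 1502 and 1392 CPM in EV, with none of the 15 at 0. Of these sums 1208, 698 and 582 CPM in N2NL and 1277, 874 and 814 CPM in EV came from Krt8 and Krt18, keratins of many simple epithelia, and the other 13 genes summed to 794, 529 and 505 CPM in N2NL and 827, 629 and 578 CPM in EV. Of the 15, 14 were highest in replicate 1 of both groups, and Tpbpa, a spongiotrophoblast gene, had 150, 60.4 and 69.8 CPM in N2NL and 136, 151 and 128 CPM in EV. Hand1, a factor of giant cells that mesoderm also uses, had 121, 65.8 and 59.1 CPM in N2NL and 112, 66.5 and 57.1 CPM in EV. The part of trophoblast-like cells in these levels was not tested.

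**Figure D5:**
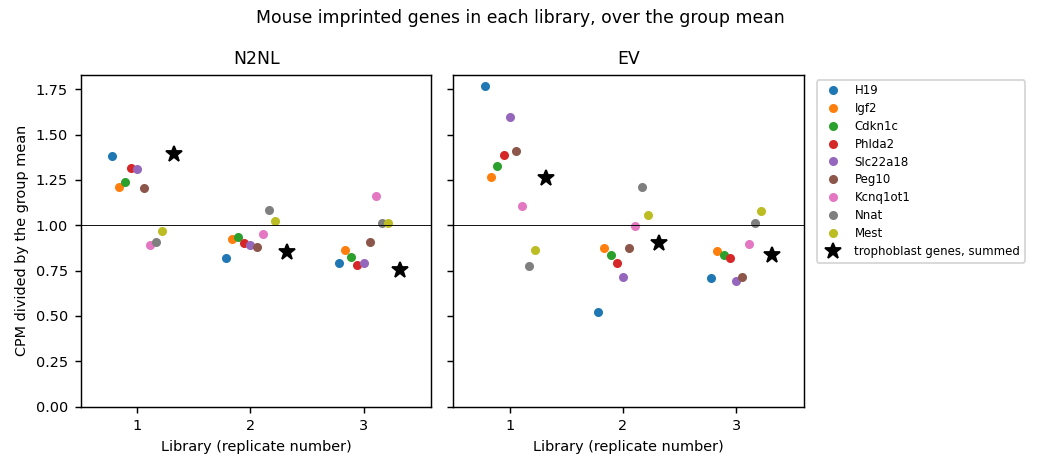
CPM of 9 mouse imprinted genes in each library divided by the mean of their group, N2NL on the left and EV on the right, with the summed trophoblast genes as stars. H19, Igf2, Cdkn1c, Phlda2, Slc22a18, Peg10 and the stars are highest in replicate 1 of both groups, and Nnat and Mest each have their lowest library of the group there.

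Without replicate 1 of both groups, an alternative added after these values were seen, edgeR called 181 mouse genes higher and 185 lower in N2NL (2.19% of 16687). Of the imprinted genes 3 were then higher and 1 lower, where 1.08% of all genes were higher and 1.11% lower. Nnat stood at a log2 fold change of 1.28 ± 0.10 (adjusted p = 1.48e-12), Mest at 0.48 ± 0.08 (1.01e-04), Zdbf2 at 0.34 ± 0.09 (0.0222) and Phlda2 at -0.36 ± 0.09 (0.0294), with 2 libraries a group. The authors' deposited table gave Phlda2 an adjusted p of 0.00606 over all libraries.

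The human orthologs of this cluster were low or uneven. H19 (ENSG00000130600; minus strand of chromosome 11, 1995176 to 2001470) gave 1, 3 and 54 counts in KO and 11, 19 and 7 in WT, the largest spread within groups of the human imprinted genes tested (percentile 99.9 of all genes tested), and KO 3 alone held nearly all KO reads. CDKN1C had 26.5, 14.2 and 30.7 CPM in KO and 21.4, 43.9 and 39.3 CPM in WT, overlapping groups. KCNQ1OT1 stood at 16.5, 9.77 and 19.1 CPM in KO and 13.5, 10.2 and 10.3 CPM in WT, and its span lies on the opposite strand to KCNQ1. PHLDA2 had at most 6 counts in any human library. The 10 trophoblast genes with a human row summed to 26.1 to 42.4 CPM in KO and 23.3 to 29.1 CPM in WT, with CDX2 and HAND1 at 0.

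IGF2R (classed as maternal in mouse), IMPACT (paternal in mouse) and UBE3A (maternal in neurons) are left out here. So are 4 genes classed as isoform or tissue dependent, among them COPG2. Genes expressed from the paternal copy numbered 17 among those tested in each species. In human 6 of them had a log2 fold change above 0 and 11 below (median -0.16), and in mouse 10 above and 7 below (median 0.03). An unadjusted p under 0.05 in edgeR was found for 6 of the 17 in human (35.3%, against 22.8% of all genes). In mouse it was found for 4 of the 17 (23.5%, against 7.45% of all genes). The maternally expressed genes, 5 tested in human and 7 in mouse, had medians of -0.52 in human and -0.22 in mouse. With all libraries, none had an unadjusted p under 0.05 in edgeR or was called by the DESeq2 Wald test run here. The authors' deposited DESeq2 table gave mouse Phlda2 an adjusted p of 0.00606. The human median was the value of MEG3, and MEG3, H19 and SLC22A18 averaged only 1.04, 0.98 and 1.03 CPM over the human libraries. Of the 7 in mouse, the 4 genes H19, Cdkn1c, Phlda2 and Slc22a18 are the ones whose level was high in replicate 1.

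Genes that set or keep imprints or remove DNA methylation (TET1, TET2 and TET3) did not differ between the groups at the threshold. Of 16 tested in human, among them the maintenance methyltransferase gene DNMT1 and TRIM28, none passed in edgeR or DESeq2 (median log2 fold change 0.03). In edgeR 3 had an unadjusted p under 0.05 (18.8%, against 22.8% of all genes), and ZFP57 had almost no reads. Of 18 tested in mouse none passed by either tool, and 4 had an unadjusted p under 0.05 (22.2%, against 7.45% of all genes). A log2 fold change above 0 was seen for 16 (median 0.08), where 48.3% of all genes lay above 0. Among the 16 were Trim28 at 1048 ± 49.8 CPM in N2NL and 869 ± 93.3 CPM in EV and Zfp57 at 112 ± 9.55 CPM in N2NL and 102 ± 3.09 CPM in EV. The 19 mouse rows of this list summed to 3238 to 3443 CPM in N2NL and 2955 to 3179 CPM in EV, without overlap. Of 18 tested genes of the insulin-like growth factor pathway in human, 1 was lower: IGFBP2, a secreted binding protein of IGF2, had 152, 141 and 130 CPM in KO and 162, 200 and 209 CPM in WT, a log2 fold change of -0.44 ± 0.11 (edgeR adjusted p = 0.0431) that with single libraries left out was called without WT 1 alone. In human 4 of the 18 had an unadjusted p under 0.05 in edgeR (22.2%, against 22.8% of all genes), and DESeq2 called IGFBP2 and IGF2BP3. None of 18 passed in mouse in edgeR, with 3 at an unadjusted p under 0.05 (16.7%, against 7.45% of all genes). DESeq2 called 1 there, the protease gene Pappa2. Of 29 further imprinted genes tested in human GPR1 alone passed in edgeR, 11 had an unadjusted p under 0.05 (37.9%, against 22.8% of all genes), and DESeq2 called 5: GPR1, DIO3, SNHG14, CALCR and RASGRF1. Of 27 in mouse none passed by either tool, with 2 at an unadjusted p under 0.05 (7.4%, against 7.45% of all genes). No gene passed in edgeR among 6 other cyclin-dependent kinase inhibitors in human or among 7 in mouse. In human 4 had an unadjusted p under 0.05 (66.7%, against 22.8% of all genes) and DESeq2 called CDKN1A. In mouse 2 had an unadjusted p under 0.05 (28.6%, against 7.45% of all genes) and DESeq2 called 0.

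Other cell type markers that passed in human are given for the reading of these levels. BCL11B, a factor of deep-layer neurons, was higher in KO (78.3 ± 0.609 CPM in KO and 33.4 ± 8.96 CPM in WT) and the neuronal tubulin gene TUBB3 lower (18.3 ± 1.48 CPM in KO and 26.3 ± 1.45 CPM in WT). Of 8 tested mesenchyme and neural crest markers PDGFRB was higher (26.4 ± 9.07 CPM in KO and 12.1 ± 2.39 CPM in WT) and LUM lower (0.377 ± 0.0969 CPM in KO and 1.58 ± 0.294 CPM in WT). In edgeR 4 of these 8 (50.0%) and 4 of 12 neuron markers (33.3%) had an unadjusted p under 0.05, against 22.8% of all genes. DESeq2 called 5 markers of mesenchyme and neural crest (COL3A1, LUM, PDGFRA, PDGFRB and FOXD3) and 3 of neurons (TUBB3, BCL11B and ELAVL4). With each of the 6 libraries left out in turn, PDGFRB kept its call in 0 fits, TUBB3 in 1, LUM in 3 and BCL11B in 5 (edgeR adjusted p = 0.0402, 0.0316, 0.0181 and 0.00662 with all libraries). The summed neuron markers ran from 2875 to 3967 CPM in KO and from 2947 to 3577 CPM in WT, and their part in the levels of DLK1, COPG2 and ZDBF2 was not tested. In mouse no neuron marker of 11 passed in edgeR, 4 had an unadjusted p under 0.05 (36.4%, against 7.45% of all genes) and DESeq2 called Stmn2. The summed neuron markers were 645 to 720 CPM in N2NL and 743 to 877 CPM in EV, without overlap. Their part in the level of Nnat was not tested.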

How the data were processed

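For each species the authors deposited whole-number counts of reads by Ensembl identifier. A second deposited table holds their comparison: per the file headers, normalized values by library (treated here as a score), log2 fold changes, standard errors and p-values. From that table adjusted p-values, gene names or descriptions and the normalized mouse values of NOTCH2NL were used. Its normalized values also served to match its columns to those of the counts. Tools named in the submitters' processing notes were DESeq2 2.11.39, HTSeq 0.6.1p1, STAR 2.4.0, Bowtie2 2.3.3.1 and Trimmomatic 0.36, with builds GRCh38 and GRCm38 and no roles. Per the labels' protocols, polyadenylated RNA went into strand-specific libraries. Counts were used as deposited. Summary lines of the mouse table that name no gene (26.64% to 33.67% of reads aligned to several places, 5.77% to 6.5% outside genes, 4.42% to 5.65% of low quality, 0.77% to 0.91% ambiguous) were left out.

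Each species was fitted apart in edgeR 4.0.16 (R 4.3.3): filterByExpr, TMM factors, robust quasi-likelihood F test, Benjamini-Hochberg over all genes tested, called at an adjusted p under 0.05. The fit was tested on simulated data. Levels are CPM with TMM factors. DESeq2 1.42.0 was an alternative. Human normalized columns 1 and 3 of the authors' table track count columns 3 and 1 of the same group (SD of the log2 ratio at most 0.0011; at least 0.2172 against the like-named column), so numbers here are those of the counts. Human coordinates and lengths came from GENCODE 29; no mouse annotation was used here. The genes and lists were chosen with earlier results of these data known. Values in every library are given for each imprinted gene called in either species, in both, and for the 3 with the highest mean CPM in each; other genes given by library were chosen after their values were seen. Genes of the other lists are named where they passed in edgeR. Of those called by DESeq2 alone, the mouse progenitor marker Lhx2 and the pluripotency marker Utf1 are named only here.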

Additional observations from a re-analysis of the deposited data

How the results depend on the processing

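Genes called in human, 391 higher and 541 lower, became 957 and 1198 with no filter on low counts, 593 and 752 by the DESeq2 Wald test, and 454 and 455 with library size alone, which moved the higher share of calls to 49.9%, against 41.95%. Imprinted genes called in human, 1 higher and 2 lower, became 3 and 5 with no filter and were 1 and 2 by DESeq2 and under both other scalings. In mouse, 2 genes higher and 0 lower became 79 and 38 with no filter, 25 and 5 by DESeq2, and 181 and 185 without replicate 1 of both groups. Imprinted genes called there, 1 higher and 0 lower, were 3 and 0 with no filter, 2 and 0 by DESeq2, and 3 and 1 without replicate 1. The cause was not tested. Leaving out 1 library gave 94 to 661 genes higher and 127 to 779 lower in human, and 0 to 6 higher and 0 to 11 lower in mouse. Imprinted genes called then ran from 0 to 1 higher and 0 to 3 lower in human and from 0 to 2 higher in mouse. No fold change of an imprinted gene called under any setting changed its sign. Same-numbered libraries deviated with correlations of 0.34, -0.23 and 0.22 in human and 0.32, 0.10 and -0.09 in mouse, so the numbers were not taken as pairs. A fit with the replicate block called 431 genes higher and 468 lower in human and 8 and 13 in mouse, with the imprinted counts at 1 and 2 in human and 1 and 0 in mouse. Of the group means, 126 of 128 moved by less than the SD between libraries with library size alone, all but PEG10 in WT (564 CPM) and UBE3A in KO (104 CPM). Depth limits what can be said of PEG3, ZIM2, USP29, MEG8, PHLDA2 and SNURF in human and Nap1l5 in mouse. Shared exons limit it as well for MEG8, SNURF and ZIM2, with 15.7%, 30.7% and 58.8% of exon bases in no other gene of the strand.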
